A study of Rattus norvegicus with 102 samples.

Results

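The genes Ttr, Kl, Folr1, Aqp1, Clic6, Otx2, Enpp2, Slc4a5 and Sostdc1 are 9 markers of the choroid plexus, and they were followed here through RNA sequencing of 3 subfields of the rat hippocampus. They were found by symbol among the 26284 genes listed in the Illumina and WT tables and the 26341 listed in the Ion Proton table. Otx2 carried 2 Ensembl identifiers, so the 9 members came to 10 rows in each table. CA1, CA3 and the dentate gyrus (DG) were dissected from the same 34 male Fisher 344 rats, which gave 3 samples a rat. The rats were 10 young animals of 5 to 6 months and 24 aged animals of 17 to 22 months, the latter split by spatial memory in a water maze into 12 aged unimpaired and 12 aged impaired animals. The labels name no allele or drug in any group, and every library was made from bulk tissue of 1 subfield of 1 rat. Each sample had 1 value per gene in each of 3 tables, named here Illumina and Ion Proton (both from poly-A RNA) and WT (library type not given in the sources used here).

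The choroid plexus is a sheet of epithelium folded around fenestrated capillaries in the brain ventricles, where it secretes cerebrospinal fluid and the proteins carried in it. In the lateral ventricle it hangs along the edge of the hippocampus, next to the fimbria, and its epithelium shares the ventricular surface with ciliated ependymal cells. Its cells transcribe Ttr at a very high level, which is why transthyretin mRNA is a standard marker of this tissue in brain dissections. In bulk tissue fewer cells of a type and less RNA per cell cannot be told apart, so a level below is a level per library and not per cell.

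Library depth ranged from 3.25 to 42.8 M reads (M, mega) in the Illumina table, from 4.47 to 21.4 M in Ion Proton and from 3.54 to 20.6 M in WT. Values are read counts divided by size factors and are written as normalised reads. They are not corrected for gene length, so the level of 1 gene is compared between libraries and not with the level of another gene. By the levels of CA1, CA3 and DG marker lists, 8 libraries lay nearest to a subfield other than the labelled one, namely 1 CA1, 5 CA3 and 2 DG libraries from 7 rats. Of these 8, 7 came from rats numbered from 9000 up. Rat numbers formed 2 series, with 18 rats numbered below 9000 and 16 numbered from 9000 up, and each series held young, aged unimpaired and aged impaired animals (5, 6 and 7 below 9000, and 5, 6 and 5 from 9000 up). The methods describe animals characterised at 2 sites, and the size of each series in young and in aged rats is that of a site. The labels do not tie a rat to a site, so in every comparison of the series a site and a number series cannot be told apart.

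Ttr (ENSRNOG00000016275, chromosome 18) encodes transthyretin, the carrier of thyroxine and of retinol-binding protein in cerebrospinal fluid. In the Illumina table it ran from 0 to 143336 normalised reads over all libraries, with a median of 212.9. In CA1 the lowest, median and highest values were 1.34, 240.4 and 1490 in young rats, 3.14, 189.1 and 118480 in aged unimpaired rats and 0, 208.9 and 143336 in aged impaired rats. The 3 groups overlapped and had similar medians, while the highest libraries of both aged groups lay far above the highest of the young. In CA3 the lowest, median and highest values were 9.84, 197.4 and 11823 in young rats, 18.3, 301.1 and 900.1 in aged unimpaired rats and 11.5, 172.1 and 2784 in aged impaired rats. In DG they were 1.6, 80.44 and 3440 in young rats, 2.66, 62.97 and 503.2 in aged unimpaired rats and 2.67, 272.8 and 734.8 in aged impaired rats. In CA3 and DG the highest library was that of a young rat, and all 3 groups overlapped.

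**Figure D1:**
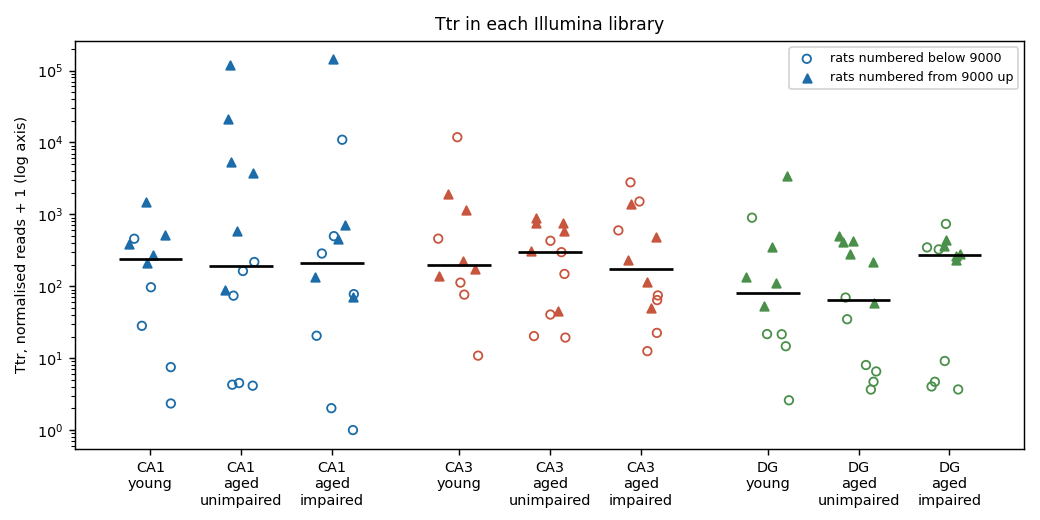
Ttr in each library of the Illumina table, in normalised reads on a log axis of value plus 1, by subfield (CA1, CA3, DG) and group (young, aged unimpaired, aged impaired), with 1 point per rat and a bar at the group median. The 9 groups overlap, and the 2 highest points, at 143336 and 118480, are CA1 libraries of an aged impaired and an aged unimpaired rat.

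Ttr was under 10 normalised reads in 17 libraries, of which 7 were CA1, 1 was CA3 and 9 were DG. It lay from 10 to 100 in 24 libraries, from 100 to 1000 in 47 and from 1000 to 10000 in 9. The remaining 5 libraries, 4 from CA1 and 1 from CA3, held at least 10000. Libraries with the label CA1 or CA3 thus spread over all 5 of these ranges, and DG libraries over the lower 4.

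The highest library was the CA1 sample of aged impaired rat R9870, with 143336 normalised reads in the Illumina table, 164500 in Ion Proton and 69452 in WT. The CA1 sample of aged unimpaired rat R9865 followed, with 118480, 131512 and 70118. Next came the CA1 sample of aged unimpaired rat R9862 (20869, 20770 and 11352), the CA3 sample of young rat R2221 (11823, 13325 and 6340) and the CA1 sample of aged impaired rat R2231 (10898, 10139 and 5712). The same libraries were high in all 3 tables, since the 8 highest in the Illumina table were the 8 highest in Ion Proton and 7 of them were among the 8 highest in WT. Over the 34 rats of a subfield, Spearman's rho between the Illumina and Ion Proton values of Ttr was 0.97 in CA1, 0.98 in CA3 and 0.91 in DG. The tables share the RNA of each sample, so this describes the measurement and not separate animals. The 5 libraries with the largest difference in Ttr between Illumina and Ion Proton stood against this. The DG library of young rat R2176 came first, with a Ttr value of 20.6 in Illumina, 6.83 in WT and 2650 in Ion Proton. In that Ion Proton library Clic6 and Kl were each at 2.0, and Slc4a5 and Sostdc1 were at 0. In the CA1 library of aged unimpaired rat R2230 Ttr was at 216.3 in Illumina and 100.6 in WT but at 11.9 in Ion Proton, where Aqp1, Clic6, Folr1, Kl, Slc4a5 and Sostdc1 were all at 0. Ttr was also at 21.4 in Illumina and 0 in Ion Proton in the CA3 library of aged impaired rat R1931, at 0 and 8.87 in the CA1 library of aged impaired rat R2189 and at 3.70 and 0 in the DG library of aged unimpaired rat R1930.

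Kl (ENSRNOG00000001092, chromosome 12) encodes klotho, the co-receptor of fibroblast growth factor 23, which choroid plexus epithelium also sheds into the cerebrospinal fluid. Its lowest, median and highest values were 0, 6.484 and 2977 normalised reads in CA1, 0, 8.85 and 270.1 in CA3, with 0, 4.134 and 62.52 in DG. The CA1 libraries of rats R9870 and R9865 held 2977 and 2969, far above the CA1 median. Sostdc1 (ENSRNOG00000005770, chromosome 6), a secreted antagonist of BMP and Wnt signalling, gave 0, 2.887 and 2072 in CA1, 0, 3.386 and 150.5 in CA3, with 0, 1.376 and 52.71 in DG. Sostdc1 in the same pair of CA1 libraries was at 2072 and 2052. At the median library of every subfield both genes were below the mean of 10 normalised reads asked for testing, so that their means rested on few libraries.

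Clic6 (ENSRNOG00000026870, chromosome 11), a member of the chloride intracellular channel family, gave 0, 13.08 and 3173 normalised reads in CA1, 4.48, 20.19 and 363.9 in CA3, with 0, 7.671 and 192.5 in DG. Slc4a5 (ENSRNOG00000010378, chromosome 4), a sodium bicarbonate cotransporter of the epithelium, gave 4.3, 14.68 and 2413 in CA1, 5.81, 16.94 and 308.2 in CA3, with 4.15, 11.62 and 101.8 in DG. Aqp1 (ENSRNOG00000011648, chromosome 4), the water channel of the apical membrane, gave 2.72, 9.719 and 1083 in CA1, 1.24, 9.452 and 374 in CA3, with 2.55, 8.708 and 57.62 in DG. The highest CA1 value of each of these transport genes belonged to rat R9870 or rat R9865. In CA3 the highest Clic6 and Slc4a5 values belonged to young rat R2221, whereas the highest Aqp1 value belonged to young rat R9876, in which Ttr was at 1133.

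Folr1 (ENSRNOG00000019902, chromosome 1), the folate receptor that passes folate from blood to cerebrospinal fluid, gave 0.928, 10.15 and 1229 normalised reads in CA1, 0, 32.6 and 192.8 in CA3, with 0, 4.086 and 68.65 in DG. Its median was higher in CA3 than in CA1 although its highest values were in CA1. Enpp2 (ENSRNOG00000004089, chromosome 7) encodes autotaxin, which makes lysophosphatidic acid and is transcribed in oligodendrocytes as well as in choroid plexus. Its values were 908, 1524 and 25445 in CA1, 545, 1602 and 6783 in CA3, with 552, 787 and 3153 in DG. In the Illumina table Enpp2 never fell below 545, and its range within a subfield was far narrower than that of Ttr. Its lowest value was 437.5 in Ion Proton and 348.1 in WT, both in the CA3 library of aged impaired rat R9781. Otx2 (ENSRNOG00000013406 and ENSRNOG00000048322, chromosome 15), the homeobox factor of the choroid plexus, had a median of 0 in the Illumina table and no value above 3.36 for either identifier. In Ion Proton its 2 identifiers reached 87.9 and 75.2 in CA1, 9.53 and 11.4 in CA3, with 9.05 and 7.92 in DG, and the highest CA1 values of both belonged to rats R9870 and R9865. No test was made of Otx2, whose mean was under 10.

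The 8 libraries highest in Ttr were also the 8 highest for Kl, Clic6, Slc4a5 and Sostdc1 in the Illumina table, and 7 of them were among the 8 highest for Enpp2 and 6 for Aqp1 and for Folr1. The part of each value above the median of its subfield was then set against that of Ttr. Per 100 normalised reads of Ttr above its median, these 8 libraries held, above the medians, from 1.27 to 1.99 of Sostdc1 and from 1.71 to 2.95 of Kl. For Slc4a5 it was from 1.37 to 2.72 and for Clic6 from 2.02 to 5.57. The ratio of these genes to Ttr, both above their medians, thus stayed within a narrow band. Ttr itself fell from 143336 to 3440 between the highest and the lowest of these libraries. Aqp1 ran from 0.35 to 1.47 and Folr1 from 0.64 to 1.95 per 100 of Ttr. Enpp2 ran from 16.7 to 71.3 per 100 of Ttr. These ratios are between levels above the subfield medians, not corrected for gene length. They are not ratios of the values themselves and say nothing of the order of the genes per length.

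Markers of neighbouring cell types in the same libraries were summed over lists for ependyma, oligodendrocytes, leptomeninges and endothelium. In the CA1 libraries of rats R9870 and R9865 the ependyma list summed to 913 and 1031 normalised reads, against a CA1 median of 447, and the oligodendrocyte list to 194714 and 143376, against 137575. A list of further choroid plexus genes summed to 35013 and 33478 there, against a median of 3986. The leptomeninges list summed to 10672 and 8568 in this pair, against a CA1 median of 4071, and the endothelium list to 7382 and 5539. The further choroid genes were thus several times above the median in both libraries, and the ependyma and leptomeninges lists were above theirs as well. The CA1 library of rat R2231, also among the 8 highest in Ttr, held a leptomeninges sum of 69704. Nor did a high sum of the further choroid genes always go with the highest Ttr. The CA3 library of young rat R9876 held 30613 of them with Ttr at 1133 and a leptomeninges sum of 152839, and the CA1 library of young rat R2175 held 8504 with Ttr at 456.6 and a leptomeninges sum of 44321. The further choroid list was thus also high where the leptomeninges list was high. The CA3 library of young rat R2221 held 2240 for ependyma (CA3 median 796) and 411854 for oligodendrocytes (median 166502), and the DG library of young rat R9881 held 1523 (DG median 318) and 234952 (median 81395). In these 2 libraries the choroid members, the ependyma list and the oligodendrocyte list were all above the median. The part of these other cell types in the member values was not tested.

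**Figure D2:**
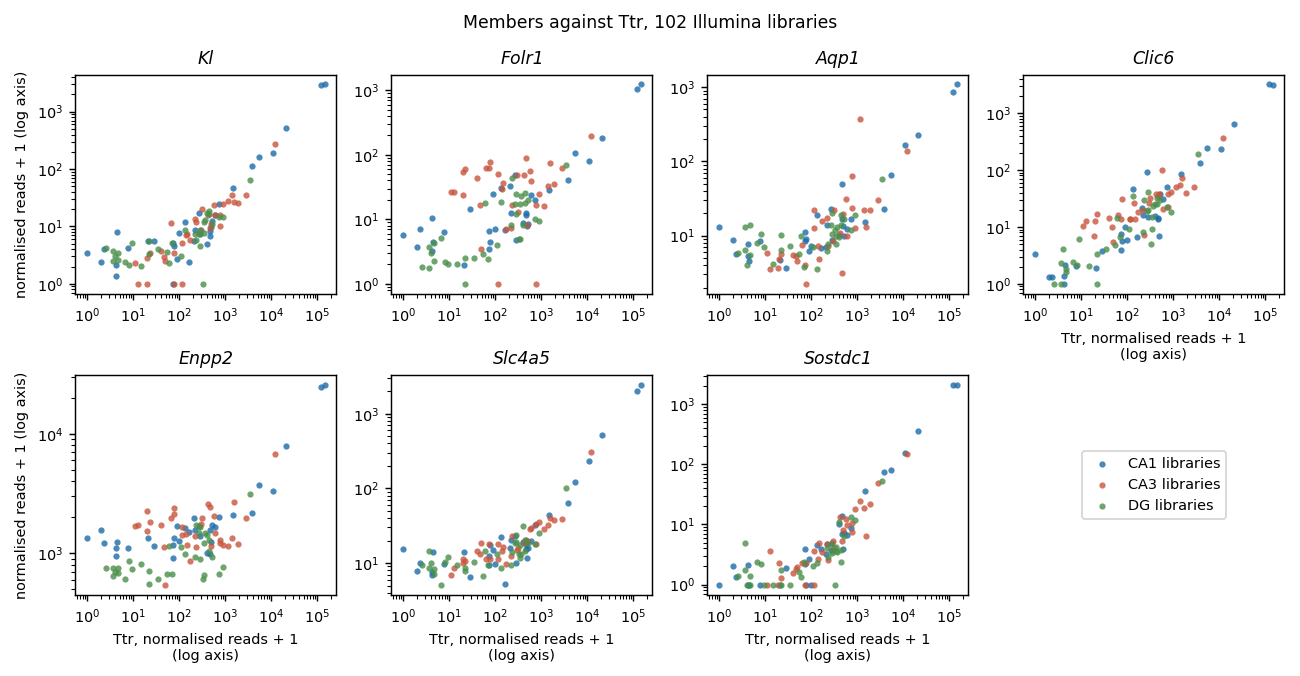
Levels of Kl, Sostdc1, Clic6, Slc4a5, Aqp1, Folr1 and Enpp2 against Ttr in every Illumina library, both axes as normalised reads plus 1 on a log scale, coloured by subfield. Kl, Sostdc1, Clic6 and Slc4a5 rise with Ttr at the right of each panel, while Enpp2 never falls below 545.

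To ask whether the members moved with Ttr across rats, each tested gene was ranked against Ttr over the 34 rats of a subfield (Spearman's rho, two-sided permutation test, Benjamini-Hochberg adjustment over all tested genes). In CA1, 7 of the 7 other tested members were called, all positive, beside 23.5% of all genes called and 13% called positive. Clic6 had the highest rho of the 14190 genes, 0.92, and Sostdc1 was next at 0.92, followed among the members by Kl at 0.86, Slc4a5 at 0.79, Aqp1 at 0.77, Folr1 at 0.76 and Enpp2 at 0.72. The adjusted permutation p was 0.000952 for each of the 7, which is the smallest value these permutations gave after adjustment. All 7 thus rose with Ttr from rat to rat in this subfield.

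In CA3, 5 of 7 members were called, all positive, beside 13.8% of all genes called and 6.73% called positive. Kl had the highest rho of 14245 genes at 0.91, with Sostdc1 at 0.90, Slc4a5 at 0.89, Clic6 at 0.86 and Aqp1 at 0.76 (adjusted permutation p = 0.00432 for each). Sostdc1 had a CA3 mean of 11.0 and fell below the filter without the 2 rats farthest from the median of Ttr. Its call is therefore a description. Folr1 gave 0.07 (adjusted permutation p = 0.810) and Enpp2 gave -0.00 (adjusted permutation p = 0.995). These were the 2 members not called with Ttr in CA3. In DG only 5 other members passed the filter, and 4 were called, all positive, beside 5.04% of all genes called and 2.87% called positive. There Clic6 had the highest rho of 14018 genes at 0.84, with Folr1 at 0.75 and Slc4a5 at 0.74 (adjusted permutation p = 0.00935 for each) and Aqp1 at 0.58 (adjusted permutation p = 0.0297). The DG means of Clic6, Folr1 and Aqp1 were 4.22, 2.68 and 7.66 in rats numbered below 9000. From 9000 up they were 31.8, 19.7 and 13.0. Clic6, Folr1 and Aqp1 thus passed the filter through the series in which Ttr was also higher by its median. Their calls in DG are a description. Enpp2 gave 0.49 and was not called (adjusted permutation p = 0.0549). With Ion Proton values 0 of the 4 members tested in DG were called, beside 0% of all genes, so that count says nothing of the members, whose rho ran from 0.34 to 0.71.

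Pearson's r on the log2(value + 1) scale was 0.78 to 0.94 for the 7 members in CA1 (adjusted permutation p = 0.000596 for each) and 0.55 to 0.88 for the 5 in DG (adjusted permutation p of 0.0162 or less). In CA3 it was 0.89 for Kl and for Sostdc1, 0.86 for Slc4a5, 0.82 for Clic6, 0.72 for Aqp1, 0.23 for Enpp2 and 0.11 for Folr1. Without the 2 rats farthest from the median of Ttr, r was 0.69 to 0.92 in CA1, 0.55 to 0.87 for the 3 members still tested in DG and 0.86, 0.87, 0.77 and 0.65 for Kl, Slc4a5, Clic6 and Aqp1 in CA3, so these relations did not rest on 2 rats. Sostdc1 in CA3 and Folr1 and Aqp1 in DG were then below the filter. The 2 number series were then taken apart. Among rats numbered below 9000 rho in CA1 was 0.87 for Clic6 and 0.70 for Kl, but 0.37 for Slc4a5 and 0.27 for Enpp2, and among rats numbered from 9000 up it was 0.64 for Folr1 and from 0.75 to 0.94 for the other members. In CA3 Kl, Clic6 and Slc4a5 were between 0.81 and 0.94 in both series. Folr1 in CA3 was 0.55 below 9000 and 0.43 from 9000 up, both above its value of 0.07 over all 34 rats. In DG Slc4a5 was 0.46 below 9000 and 0.70 from 9000 up, and Enpp2 was -0.24 and 0.35. Only these 2 members were tested in DG below 9000. From 9000 up 6 were tested there, with rho from 0.35 to 0.87. Within a series 5 of 7 members were called in CA1 from 9000 up, beside 1.61% of all genes, and 4 of 7 in CA3 below 9000, beside 2.68%. In CA1 below 9000, in CA3 from 9000 up and in both series of DG, 0 members were called, beside 0% of all genes.

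Among genes outside the 9, the 10 with the highest median rho with Ttr over the 3 subfields, of 13880 ranked, were Igf2 (0.84), Cdkn1c (0.80), Mfrp (0.76), Ptgds (0.74), Lamb2 (0.73), Als2cr12 (0.71), Slc13a4 (0.71), Myo5c (0.70), Igfbp2 (0.70) and Flna (0.69). A median hides the lowest subfield, and not all of these genes were called with Ttr in every one. Myo5c had a rho of -0.27 in DG (adjusted permutation p = 0.309) and Cdkn1c of 0.36 there (adjusted permutation p = 0.158). In CA3 rho was 0.25 for Als2cr12 (adjusted permutation p = 0.306), 0.38 for Ptgds (adjusted permutation p = 0.105) and 0.46 for Mfrp (adjusted permutation p = 0.0524). Igf2 encodes insulin-like growth factor 2, a protein that choroid plexus and leptomeninges release, and Igfbp2 encodes one of its binding proteins. Igf2 stood at 7363 normalised reads in the CA1 library of rat R9870 and at 6541 in that of rat R9865, against a CA1 median of 155.5. Mfrp stood at 4023 and 3877 against 20.0. Both genes were therefore raised in the same pair of libraries as Ttr. Ptgds, prostaglandin D synthase, is on the list of leptomeninges markers used here.

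The list of further choroid plexus genes held 29 names, such as the tight junction gene Cldn2, the coagulation factor gene F5 and the potassium channel gene Kcnj13. In CA1, 19 of its 25 tested genes were called with Ttr, in CA3 9 of 20 and in DG 7 of 17, all positive. Of all genes, 13%, 6.73% and 2.87% were called positive in these subfields. The median rho of the tested list genes with Ttr was 0.68, 0.40 and 0.37, beside -0.03, 0.01 and -0.02 over all genes. The leading genes were Cldn2 (0.88), Igf2 (0.86), F5 (0.80) and Slc4a2 (0.79) in CA1, and F5 (0.89), Igf2 (0.84), Cldn2 (0.72) and Kcnj13 (0.70) in CA3. Markers of other cells of the region were called positive too. These were 8, 6 and 5 of 11 leptomeninges genes in CA1, CA3 and DG, 11, 9 and 3 of 12 endothelium genes, 4, 0 and 5 of 9 ependyma genes and 9, 0 and 0 of 12 oligodendrocyte genes. The shares of all genes called positive given above stand beside these counts too. What these cell types contributed to the relation of a member with Ttr was not tested.

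Promoter sequences could be matched for 4 of the 9 members, Aqp1, Kl, Slc4a5 and Ttr, in the RefSeq table of build GRCr8. The stretches of 250 bases before the start are shown for Kl and Slc4a5, both among the members called with Ttr in CA3, so that the start regions of genes that moved together can be read side by side, with the letters TAATC in capitals where they occur. The gene starts directly after the last base shown.
Kl, chr12:5325753-5326002, plus strand: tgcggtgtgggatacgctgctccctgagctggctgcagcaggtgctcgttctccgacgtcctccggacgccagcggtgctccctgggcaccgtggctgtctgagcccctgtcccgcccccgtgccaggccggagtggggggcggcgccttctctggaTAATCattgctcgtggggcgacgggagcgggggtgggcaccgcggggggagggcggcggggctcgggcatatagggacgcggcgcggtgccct
Slc4a5, chr4:117283044-117283293, plus strand: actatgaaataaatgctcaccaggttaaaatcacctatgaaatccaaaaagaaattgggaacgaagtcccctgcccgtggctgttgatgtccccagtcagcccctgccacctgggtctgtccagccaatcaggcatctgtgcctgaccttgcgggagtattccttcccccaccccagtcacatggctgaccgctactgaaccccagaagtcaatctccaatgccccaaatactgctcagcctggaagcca
The letters TAATCC, the core bound by OTX homeobox factors, were searched on both strands (reverse complement GGATTA) and occurred in 0 of the 4 promoters, beside 6.34% of 33469 promoters of the same length. The shorter TAATC (reverse complement GATTA), which every TAATCC contains, occurred 2 times before Ttr, at 77 and 12 bases before the start, and 1 time before Kl, at 93 bases. It occurred 0 times before Aqp1 and Slc4a5, beside 20.49% of all promoters holding at least 1. These matches describe letters in the window and nothing about binding.

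Folr1, Enpp2 and Aqp1, which shared fewer of their 8 highest libraries with Ttr than the other members did, were also set against the summed level of each of the 4 lists over the 34 rats of a subfield, which made 36 relations, chosen after the values were seen. In CA1 Folr1 rose with the ependyma list with r = 0.87 and rho = 0.88 (permutation p = 1e-05 for each, the smallest these permutations can give). In CA3 r was 0.86 and rho 0.88, with the same permutation p. Without the 2 rats farthest from the median of Folr1, r was 0.84 in CA1 and 0.83 in CA3. Folr1 followed the ependyma list in both number series in these subfields, with rho of 0.78 below 9000 and 0.87 from 9000 up in CA1 and of 0.82 and 0.80 in CA3. In DG r was 0.83 and rho 0.75, with rho of -0.17 below 9000 (permutation p = 0.503) and 0.89 from 9000 up. Below 9000 Folr1 in DG had a mean of 2.68 and a median of 1.53 normalised reads. Such low values cannot show whether the relation held in that series. The same limit holds for the other DG values of Folr1 below 9000 in this paragraph. Other lists went with Folr1 too. Its rho with the leptomeninges list was 0.77 in DG and 0.73 in CA1 (adjusted permutation p = 2.57e-05 for each), with 0.17 and 0.19 below 9000 and 0.74 and 0.69 from 9000 up. With the oligodendrocyte list it was 0.63 in DG (adjusted permutation p = 0.000227) and 0.64 in CA3 (adjusted permutation p = 0.000135), with -0.63 and 0.72 below 9000 and 0.70 and 0.0015 from 9000 up. With the endothelium list in CA3 it was -0.44 (permutation p = 0.00936, adjusted 0.0120), but it was 0.08 below 9000 (permutation p = 0.742) and -0.33 from 9000 up (permutation p = 0.205) and passed in neither series.

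Enpp2 rose with the oligodendrocyte list with r = 0.91 and rho = 0.92 in CA3 and with r = 0.95 and rho = 0.92 in DG (permutation p = 1e-05 for each). Without the 2 rats farthest from the median of Enpp2, r was 0.92 in CA3 and 0.95 in DG. Within the series rho was 0.92 below 9000 and 0.79 from 9000 up in CA3, and 0.62 and 0.99 in DG, so Enpp2 followed the list in both series. In CA1 Enpp2 gave r = 0.43 (permutation p = 0.00869) and rho = 0.77, with rho of 0.74 below 9000 and 0.43 from 9000 up (permutation p = 0.0985). In that subfield Enpp2 was at 25445 and 24499 in the libraries of rats R9870 and R9865, where the oligodendrocyte list was at 194714 and 143376 beside a median of 137575. Other lists gave relations of similar size. Enpp2 had a rho of 0.78 with the leptomeninges list in CA1, with 0.67 below 9000 and 0.76 from 9000 up, and its rho with the ependyma list was 0.78 in CA3 (0.76 and 0.33 within the series) and 0.81 in DG (0.15 and 0.79), with an adjusted permutation p of 2.57e-05 for each. No test separated the lists from each other. Over the 36 relations the adjusted permutation p of rho was 2.57e-05 for each relation of Folr1 with ependyma and of Enpp2 with oligodendrocytes, and that of r was 3.6e-05 except for 0.0142 for Enpp2 in CA1.

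Aqp1 is transcribed in choroid plexus epithelium and, outside the brain, in many endothelia. With the endothelium list in CA3 its r was 0.735 and its rho 0.728 (permutation p = 1e-05 for each). Without the 2 rats farthest from the median of Aqp1, r was 0.68. Within the series rho was 0.42 below 9000 (permutation p = 0.0858) and 0.53 from 9000 up (permutation p = 0.0361). With the same list rho was 0.64 in CA1 and 0.45 in DG. Other lists went with Aqp1 too. Its rho with the leptomeninges list was 0.77 in CA1, with 0.73 below 9000 and 0.67 from 9000 up. In DG it was 0.64 (0.57 and 0.73) and in CA3 0.41 (0.40 and 0.69). With the ependyma list it was 0.60 in CA1 and 0.45 in DG, but -0.29 in CA3. The CA3 library of young rat R9876, with the highest Aqp1 value of CA3, had a leptomeninges sum of 152839 normalised reads against a CA3 median of 3969 and an endothelium sum of 13007 against 4455. Aqp1 was thus highest in a CA3 library in which other lists, and not Ttr alone, stood far above their medians.

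**Figure D3:**
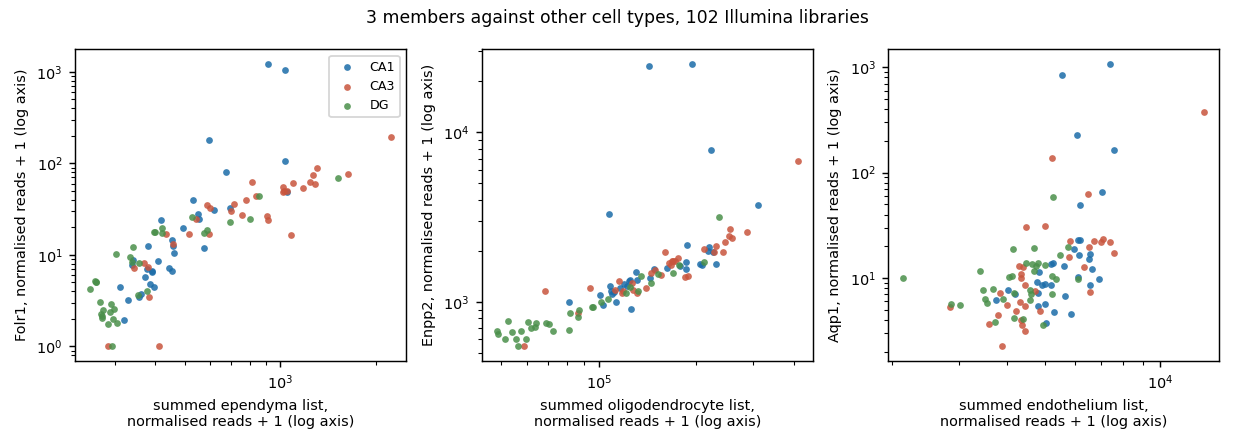
Folr1 against the summed ependyma list, Enpp2 against the summed oligodendrocyte list and Aqp1 against the summed endothelium list in each Illumina library, coloured by subfield, all axes in normalised reads plus 1 on log scales. Folr1 and Enpp2 rise with their list, with rho of 0.88 for Folr1 in CA3 and 0.92 for Enpp2 in CA3 and in DG.

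The subfields were compared with limma on log2(value + 1), a scale that understates the change of low genes, and a gene was called where Illumina and Ion Proton both gave an adjusted p under 0.05 with 1 direction. Of the 9 members 8 were tested. Between CA1 and CA3, 0 were called by limma, beside 14.1% of all genes, and 0 had an unadjusted p under 0.05 in the Illumina table. edgeR, run on recovered reads, called 6, beside 15.2% of all genes, and DESeq2 called 5, beside 16.2%. Without the CA1 libraries of rats R9865 and R9870 edgeR called 0. The smallest p was that of Folr1, with a log2 difference of -0.66 ± 0.43 (SE, limma, p = 0.135) for CA1 minus CA3. Its direction depended on the fit, since edgeR gave 1.07 and DESeq2 0.43. It also turned with the number series. The Folr1 medians in CA1 and CA3 were 5.71 and 51.0 normalised reads below 9000, but 28.4 and 15.5 from 9000 up. This contrast between the series was not itself tested.

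CA1 was higher than DG for 4 of the 8 tested members, beside 26.4% of all genes called and 13.1% called higher. Enpp2 differed by 1.01 ± 0.19 on the log2 scale (SE, limma, adjusted p = 5.69e-06). The other calls were Folr1 at 1.29 ± 0.43, Sostdc1 at 1.38 ± 0.51 and Kl at 1.18 ± 0.49. These 3 passed the filter on low values, a mean of 10 in each table, through the subfields where they were high. Their means in CA1 and DG were 144.0 and 3.86 for Sostdc1 and 209.7 and 7.54 for Kl, and Folr1 had a mean of 10.7 in DG in the Illumina table and of 9.34 in Ion Proton, so their differences are given as a description. The same 4 differences in Ion Proton were 0.96 for Enpp2, 1.53 for Folr1, 1.401 for Sostdc1 and 1.29 for Kl. The 5 members with a mean of at least 10 in both subfields and both tables were Enpp2, Ttr, Clic6, Slc4a5 and Aqp1, all 5 with a positive difference and a median of 1.01 beside 0.0029 over all genes tested. Of these 5 only Enpp2 passed the test. Without the CA1 libraries of rats R9865 and R9870, only Enpp2 was called (0.77), and Folr1 (0.91), Sostdc1 (0.87) and Kl (0.69) were not. Leaving out any of 9 single rats, among them R9865 and R9870, reduced the calls to 2, whereas edgeR and DESeq2 called 8, beside 28.9% and 29.8% of all genes, with the same 3 low members among the 8.

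CA3 was higher than DG for 2 members, beside 27.9% of all genes called and 13.9% called higher. Enpp2 differed by 0.82 ± 0.19 (SE, limma, adjusted p = 0.000172). Folr1 differed by 1.94 ± 0.43 in Illumina and by 2.47 in Ion Proton, which is a description for the reason given above, its DG mean of 9.34 in Ion Proton. In the rats numbered below 9000 the difference was 1.56 for Enpp2, whereas in the rats numbered from 9000 up it was -0.01, a contrast between the series that was not itself tested. For Folr1 the same values were 4.10 and -0.49, and the first of them was taken over a DG mean of 2.68 normalised reads, beside 58.9 in CA3, so that it too passed the filter only through CA3. The 5 members with a mean of at least 10 in both subfields and tables all had a positive difference in the Illumina table here too, with a median of 0.82 beside 0.0099 over all genes tested, while that of Aqp1 was below 0 in Ion Proton. Marker lists differed between the same subfields. All 12 oligodendrocyte genes were called higher in CA1 and in CA3 than in DG, and of 9 ependyma genes 3 were called higher in CA1 than in DG, 8 higher in CA3 than in DG, and 6 lower and 1 higher in CA1 than in CA3. The part of these cell types in the member differences was not tested.

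**Figure D4:**
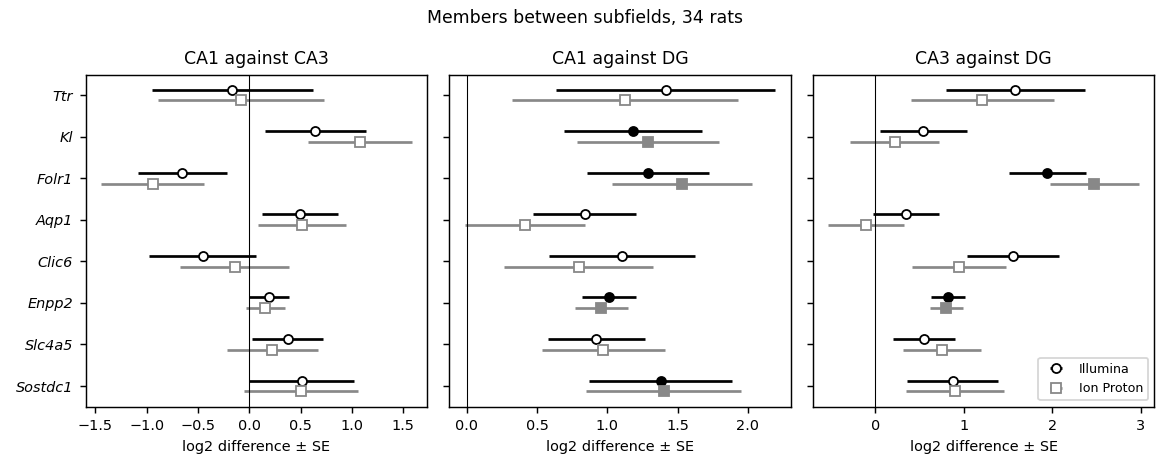
Log2 differences of the 8 tested members between subfields (CA1 against CA3, CA1 against DG, CA3 against DG), Illumina and Ion Proton side by side, with bars of 1 SE from limma and filled points for calls in both tables. All 8 Illumina points lie above 0 in both panels with DG, and Folr1 at 1.94 and Enpp2 at 0.82 are the calls of the last panel. Kl, Sostdc1 and, in Ion Proton, Folr1 had a DG mean under 10.

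Among the further choroid plexus genes, 2 of 23 tested were called higher and 4 lower in CA1 than in CA3, 8 higher and 4 lower in CA1 than in DG, and 9 higher and 3 lower in CA3 than in DG, beside 14.1%, 26.4% and 27.9% of all genes called. A list of partners of the member proteins, such as receptors and transporters of thyroid hormone, lysophosphatidic acid and folate and co-receptors of the Wnt and BMP pathways, held 15 tested genes. Of these, 4 were called higher and 1 lower in CA1 than in DG, beside 26.4% of all genes called, so the partners are given as a description. They were Lpar1, a receptor of lysophosphatidic acid found on oligodendrocytes (0.76), the thyroxine transporter gene Slco1c1 (0.37), the thyroid hormone receptor gene Thrb (0.36) and the Wnt co-receptor gene Lrp4 (0.28), with Thra, the other thyroid hormone receptor gene, at -0.12. In CA3 against DG, Lpar1 (0.86) and Thrb (0.28) were called higher and the retinol carrier gene Rbp4 (-0.75) lower, beside 27.9% of all genes called.

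The comparisons of age and of memory within a subfield asked for an unadjusted p under 0.01 in the Illumina table and a one-sided p under 0.05 in the same direction in Ion Proton. Aged against young, 0 of 8 members were called in CA1, 0 of 8 in CA3 and 0 of 6 in DG by limma, beside 0.832%, 0.393% and 1.07% of all genes. None of them had an unadjusted p under 0.05 in the Illumina table. The smallest p was that of Enpp2 in CA1 (log2 difference 0.60 ± 0.40, SE, limma, p = 0.142), of Clic6 in CA3 (-0.57 ± 0.43, p = 0.192) and of Folr1 in DG (0.40 ± 0.57, p = 0.486). Single rats moved these values, since Clic6 in CA3 was -0.18 without young rat R2221, and Folr1 in DG ran from 0.13 without young rat R2176 to 0.60 without rat R9877. Kl and Sostdc1 had a mean under 10 in young CA1 and in aged CA3 in at least 1 table. The other 6 members all had a positive difference in CA1, with a median of 0.83 beside -0.0045 over all genes tested, and a negative difference in CA3, with a median of -0.55 beside -0.014. The members move together across rats, so these are not 6 separate measurements, and the CA1 medians of Ttr were lower in both aged groups than in the young. The age effect itself was compared between subfields, and 0 of 8 members were called by limma in each of the 3 pairs, beside 0% of all genes. The smallest p there was that of Aqp1 for CA1 minus CA3, a difference of 1.58 ± 0.80 (p = 0.0513).

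The count tests gave other numbers for age. Any call of Kl or Sostdc1 among them is a description, for the low means given above. edgeR called 6 members higher in aged CA1, beside 1.1% of all genes, and 3 lower in aged CA3, beside 1.1%. DESeq2 called 2 and 0, beside 1.24% and 0.702%. Without the CA1 libraries of rats R9865 and R9870, which are both aged, edgeR called 0 in CA1, and without the CA3 library of rat R2221, which is young, it called 1 in CA3. The age calls of edgeR in CA1 thus rested on a pair of libraries. In DG edgeR and DESeq2 called 0, beside 1.14% and 1.27%. For the difference of the age effect between CA1 and CA3 edgeR called 5, beside 0.113% of all genes, but 0 without that pair of CA1 libraries and 1 without the CA3 library of rat R2221.

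Aged impaired against aged unimpaired, limma called 0 of 8 members in CA1, 0 of 7 in CA3 and 0 of 5 in DG, beside 0.62%, 0.0211% and 0.121% of all genes. edgeR also called 0, beside 0.683%, 0.0281% and 0.2% of all genes in CA1, CA3 and DG, and so did DESeq2, beside 0.824%, 0.0492% and 0.236%. No member had an unadjusted p under 0.05 with limma. The smallest p was that of Folr1 in CA1 (-0.93 ± 0.95, SE, limma, p = 0.340), of Slc4a5 in CA3 (0.18, p = 0.504) and of Enpp2 in DG (0.14, p = 0.470). The value of Folr1 in CA1 was -0.43 without rat R9865 and -1.52 without rat R9870. The SE of 0.95 for Folr1 was larger than the size of its difference. What difference 12 rats a group could detect was not tested.

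The 2 aged groups were also set separately against the same young rats, so these comparisons share controls. Aged unimpaired against young, limma called 0 of 8 members in CA1, 0 of 8 in CA3 and 0 of 5 in DG, beside 0.607%, 0.386% and 0.621% of all genes. Aged impaired against young it called 0 of 8, 0 of 8 and 0 of 6, beside 1.21%, 0.274% and 0.948%. No member had an unadjusted p under 0.05 in these 6 comparisons. Enpp2 in CA1 came nearest in the unimpaired rats (0.71, p = 0.102, and 0.39 without rat R9865) and Aqp1 in CA1 in the impaired rats (0.98, p = 0.172, and 0.46 without rat R9870). edgeR called 8 members in CA1 of the unimpaired rats and 6 in CA1 of the impaired rats, beside 0.903% and 1.27% of all genes, and without the CA1 libraries of rats R9865 and R9870 it called 3 and 0. It also called 1 member in CA3 of the impaired rats, beside 0.575%. Kl and Sostdc1 are among the 8 called in CA1 of the unimpaired rats. Their young CA1 means were 10.6 and 6.32 in Illumina and 9.30 and 5.36 in Ion Proton. They passed the filter through the aged rats, so any edgeR or DESeq2 call of them in CA1 against young is a description. In CA3 of the unimpaired rats and in DG of the unimpaired and the impaired rats edgeR called 0, beside 0.491%, 0.643% and 0.948%. DESeq2 called 3 members in CA1 of the unimpaired rats, beside 0.988%. It called 0 in their CA3 and DG, beside 0.541% and 0.736%, and 0 in CA1, CA3 and DG of the impaired rats, beside 1.38%, 0.47% and 1.16%. Of the further choroid plexus genes, 0 were called by limma in any comparison of age or memory.

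The members were also compared between the 2 series of rat numbers. This comparison was added after the data were seen, with the 3 groups of rats as a term in the fit and the call rule of the subfields. In CA1 the median of Ttr was 50.1 normalised reads in rats numbered below 9000 and 548 in those from 9000 up, in CA3 93.4 and 396, and in DG 10.9 and 284. In Ion Proton the same medians were 24.9 and 570, 101 and 359, and 14.2 and 256. The level of Ttr was thus higher from 9000 up in all 3 subfields by its median.

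In CA1, 7 of 8 members were called higher from 9000 up, beside 7.5% of all genes called and 4.2% called higher. Ttr differed by 5.03 ± 1.15 on the log2 scale (SE, limma), Clic6 by 3.94, Sostdc1 by 3.22, Kl by 2.84, Folr1 by 2.47, Slc4a5 by 2.11 and Enpp2 by 1.02, while Aqp1 at 1.62 was not called. The call of Enpp2 was lost when any of 18 of the 34 rats was left out, R9865 and R9870 among them, with a difference from 0.77 to 1.15 over all 34, while the other 6 calls held without any single rat. Without the CA1 libraries of rats R9865 and R9870, 3 members were called, a count given without the share of all genes and so as a description. Sostdc1 passed the filter in CA1 through the series where it was high, with means of 9.97 and 294.9. Clic6, Kl and Folr1 had means of 17.1, 14.3 and 10.1 below 9000 but medians of 3.68, 4.01 and 5.71, and without the library of rat R2231 their means there were 4.68, 4.07 and 6.03. Slc4a5 then had a mean of 10.4 in Illumina and 8.26 in Ion Proton. The differences of these 5 members are therefore a description, and of the 7 calls only Ttr and Enpp2 had a mean of at least 10 in both series and tables without that library. In DG 3 of 6 were called higher, beside 12.9% of all genes called and 7.3% called higher. These were Ttr at 3.65 ± 0.74, Clic6 at 2.77 and Enpp2 at 0.85, of which Clic6 had a mean of 4.22 below 9000 and so passed the filter through the rats from 9000 up.

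In CA3 2 members were called, both lower from 9000 up, beside 18.2% of all genes called and 10% called lower. Folr1 fell by 2.26 ± 0.41 and Enpp2 by 0.75 ± 0.16 on the log2 scale (SE, limma). The lowest, median and highest Folr1 values in CA3 were 23.1, 51 and 192.8 below 9000 and 0, 15.5 and 54.7 from 9000 up. In DG they were 0, 1.53 and 9.19 below 9000 and 1.89, 16.6 and 68.7 from 9000 up. By its median Folr1 was thus lower from 9000 up in CA3 and higher in DG, with overlap in both, and in DG it was not called because it was below the filter in Ion Proton. Other markers moved with the series. Oligodendrocyte genes were called higher from 9000 up for 8 of 12 in CA1 and 12 of 12 in DG and lower for 11 of 12 in CA3, and ependyma genes higher for 5 of 9 in CA1 and 6 of 9 in DG and lower for 7 of 9 in CA3. Of the 8 genes of the CA1 marker list 6 were tested in CA1, and 3 of these (Ndst4, Nov and Man1a1) were called lower and 0 higher from 9000 up. The part of these markers in the member levels was not tested.

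**Figure D5:**
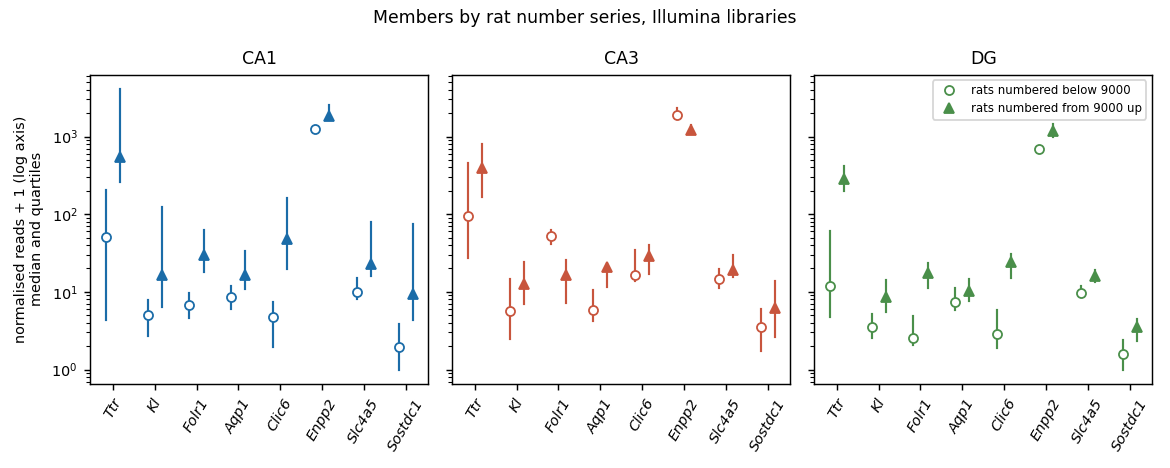
The 8 tested members by subfield in the Illumina table, with rats numbered below 9000 (open circles) beside those from 9000 up (filled triangles), in normalised reads plus 1 on a log axis, as the median of the rats with a line from the lower to the upper quartile. Ttr is higher from 9000 up in each subfield, with CA1 medians of 50.1 and 548, while Folr1 is lower in CA3, with medians of 51 and 15.5.

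Ttr was also compared between the subfields of the same rat, as 3 relations over 34 rats. Between CA1 and DG r was 0.71 and rho 0.77 (permutation p = 1e-05 for each). Without the 2 rats farthest from the Ttr median of the subfield named first, r was 0.73. Between CA3 and DG r was 0.67 (permutation p = 3e-05) and rho 0.73 (permutation p = 1e-05), and without the 2 farthest rats r was 0.83. Between CA1 and CA3 r was 0.56 (permutation p = 0.00057) and rho 0.65 (permutation p = 9e-05), with r = 0.58 without the 2 farthest. Adjusted over the 3 relations, the permutation p of rho was 1.5e-05, 1.5e-05 and 9e-05 in this order. A rat high in Ttr in 1 subfield thus tended to be high in the others over all 34 rats. Among rats numbered below 9000 rho was 0.68 between CA1 and CA3 (permutation p = 0.00253), 0.71 between CA1 and DG (permutation p = 0.00166) and 0.84 between CA3 and DG. From 9000 up it was 0.29 (permutation p = 0.283), 0.38 (permutation p = 0.147) and 0.61 (permutation p = 0.0125), so that only the relation of CA3 with DG passed p = 0.05 in both series.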

How the data were processed

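RNA from CA1, CA3 and DG of 34 rats was sequenced, and each sample had 1 column in each of the 3 deposited tables. The deposited values were a signal made by the authors, read counts per gene divided by size factors. The authors aligned Illumina reads with STAR and Ion Proton reads with TopHat2 and Bowtie2 to rn5 and counted them with featureCounts. The submitters' processing notes name bcl2fastq 2.17, cutadapt 1.8.3, STAR 2.5, featureCounts 1.4.4 and DESeq2 1.16.1. How the WT libraries were made and whether counting used strand are not given in the sources used here, so genes that overlap a neighbour may share reads. Whole reads could be recovered from 100.0% of values (tolerance 0.01), which gave the depth of each library and the counts for edgeR and DESeq2 as alternatives.

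Values were tested as log2(value + 1) with limma 3.58.1 (trend) in R 4.3.3, for genes with a mean of at least 10, fitted on the whole table with Benjamini-Hochberg adjustment over all tested genes. Subfield fits pooled all libraries of a table, and comparisons of age and memory were fitted within a subfield. Rank correlations with Ttr used 100000 permutations with SciPy 1.17.1 and NumPy 2.4.6. The rat is the replicate. Samples of 1 rat are paired because they come from the same animal. Their deviations from the group means correlated above 0.1 in 13, 26 and 10 of 34 rats for the 3 pairs of subfields, and a fit with the rat as a block changed no count of called members. The 9 members, the marker lists and the tests were chosen with earlier results of these data known. The genes named were the members, the 10 genes most like Ttr in median rho and up to 4 called genes of a list with the smallest p. Thra and the CA1 markers named were added after their values were seen, as were Cldn2, F5 and Kcnj13 as examples of a list. Member statistics are given for members called in a comparison or, where none was, for the member with the smallest p. Scripts were tested on simulated data. Alternatives used edgeR 4.0.16, DESeq2 1.42.0, another pseudocount, no filter, quantile normalisation, the WT table, each number series and left-out rats or libraries. Promoters are from RefSeq (GRCr8).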

Additional observations from a re-analysis of the deposited data

Results flagged for a closer look

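The 22 sets of member values in the young groups were tested for a sample that stands apart, on the log2(value + 1) scale (Dixon's critical value 0.466 for 10 samples). Of these, 5 were flagged, and chance flags about 1 group in 20. The members move together across rats, so the 22 sets are not separate draws. All flags came from the CA3 library of rat R2221 and the DG library of rat R9881. The aged groups, with 12 samples each, were not tested, so the CA1 libraries of rats R9870 and R9865 were outside this rule. In the CA3 library of young rat R2221, Clic6 was at 363.9 normalised reads beside a next value of 48.8, Enpp2 at 6783 beside 2451 and Slc4a5 at 308.2 beside 36.3. In the DG library of young rat R9881, Enpp2 was at 3153 beside a next value of 1219 and Slc4a5 at 101.8 beside 24.3. Both libraries belonged to the 8 highest in Ttr, and in both the ependyma and oligodendrocyte lists were above the median of the subfield, whose part was not tested.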

How the results depend on the processing

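Of 312 counts of called members recomputed under an alternative, 271 stayed within 1.5 times the reported count. The cause of the changes was not tested. Between CA1 and CA3 the count rose from 0 to 6 with edgeR, 5 with DESeq2, 8 with edgeR without the CA3 library of rat R2221 and 0 with edgeR without the CA1 libraries of rats R9865 and R9870, and it was 3 in rats numbered below 9000, 1 in those from 9000 up and 1 with limma without that pair. For CA1 against DG it moved from 4 to 2 with a pseudocount of 0.1, no filter, quantile normalisation, without the libraries nearest to another subfield and in rats numbered below 9000, to 1 without the CA1 libraries of rats R9865 and R9870, to 8 with edgeR, DESeq2 and edgeR without the CA3 library of rat R2221, and to 7 with edgeR without the pair. For CA3 against DG it was 0 from 9000 up and 4 with edgeR without the pair. For aged against young it was 6 with edgeR and 2 with DESeq2 in CA1 and 3 with edgeR in CA3. Without rat R2221 edgeR gave 6 in CA1 and 1 in CA3, and without the pair 3 in CA3. For aged unimpaired against young in CA1 edgeR gave 8, DESeq2 3, edgeR without the pair 3 and without rat R2221 8. For aged impaired against young edgeR gave 6 in CA1, with and without rat R2221, and 1 in CA3, with and without the pair. The age effect of CA1 minus CA3 gave 5 with edgeR, 1 without rat R2221 and 0 without the pair. The number series in CA1 gave 3 without the pair. For rank correlation with Ttr the counts were 0 in CA1 below 9000, 0 in CA3 from 9000 up, and in DG 2 without the 2 farthest rats and 0 within each series and in Ion Proton. In each of these rank correlation cases with 0 members, 0% of all genes were called. Where no share of all genes is given for another alternative, here or in the results, its count is a description. A lower count there cannot be told from fewer calls among all genes.

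Leaving out each rat in turn gave 2 to 5 calls for CA1 against DG, with 2 in 9 cases (rats R2231, R9780, R9862, R9865, R9867, R9869, R9870, R9874 and R9877), 0 to 0 for CA1 against CA3, 2 to 2 for CA3 against DG and 0 to 0 for age, memory and their difference between subfields. For the number series it gave 6 to 8 in CA1, 2 to 4 in CA3 (4 without rat R2221) and 2 to 3 in DG (2 without rat R9881). Values not called also moved by over 1.5 times, such as Clic6 in CA3, which without rat R2221 was -0.18 for aged against young, -0.09 for aged unimpaired and -0.28 for aged impaired against young, and Folr1 in CA1 for impaired against unimpaired, which ran from -1.52 to -0.43. With the rat as a replicate block the subfield counts were 0, 4 and 2, and no other call changed.

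Of 413 recomputed values of single members, 366 kept direction and side of the threshold, 21 lost and 8 gained a call, and 18 turned direction. Folr1 in CA1 against CA3 was 1.07 with edgeR, 0.43 with DESeq2, 1.84 from 9000 up and 1.26 with edgeR without rat R2221. From 9000 up, CA3 against DG was -0.012 for Enpp2 and -0.49 for Folr1. Clic6 in CA3 was 0.073 with DESeq2 and 0.040 with edgeR without rat R2221 for aged against young, 0.13 with DESeq2, 0.19 from 9000 up and 0.097 with edgeR without rat R2221 for aged unimpaired against young, and 0.0035 with DESeq2 for aged impaired against young. Folr1 in DG was -0.22 with DESeq2 and -0.18 without the 7 deeply sequenced rats for aged against young and -0.051 without those rats for aged impaired against young. Slc4a5 in CA3 was -0.044 from 9000 up and Enpp2 in DG -0.021 with the WT table for impaired against unimpaired, and Enpp2 in DG was 0.035 with the WT table and 0.059 without rat R9881 for aged unimpaired against young. Otx2 and, in DG, Kl and Sostdc1 fell below the filter on low values, so no test covers them there.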
